A study of Mus musculus with 66 samples.

Results

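The DNA replication and recombination repair genes are a group of 47 genes listed by name, with earlier results of these data known, and they fall into 7 roles in copying or mending DNA. They comprise 11 genes of the replicative helicase, 5 of origin licensing, 8 of the polymerases and primase, 9 of the sliding clamp, its loader, Okazaki fragment joining and single-strand binding, 4 of nucleotide supply, 4 of chromatin and methylation behind the fork, and 6 of repair. All 47 were among the 15856 genes listed by 3'READS, a method that sequences the last bases of an mRNA next to its poly(A) tail, and 22 were among the 9999 genes listed by RNA-seq. All listed members passed the filter on low counts in each assay.

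The samples were C2C12 cells, an established mouse myoblast line, transfected for 48 h with 50 nM of siRNA. The siRNA was a non-specific control (siCtrl) or was directed at Paf1, Cdc73 or Ski8 (siPaf1, siCdc73, siSki8), subunits of the Paf1 complex, which travels with RNA polymerase II. Each assay had 2 libraries each of siCtrl, siPaf1 and siCdc73, one from batch 1 and one from batch 2, and 1 library of siSki8, from batch 2, so for siSki8 the spread was taken from the replicated groups. The design was the same in both assays. Nothing in the labels says that the batches were separate cultures, so a p-value measures only the spread between these libraries, which may be technical. Total RNA from a transfected population was measured, and fewer dividing cells cannot be told apart from less mRNA per cell.

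DNA is copied once per cell cycle. In G1 the origin recognition complex, Cdc6 and Cdt1 load the MCM ring onto DNA, and in S phase Cdc45 and the GINS complex turn that ring into the working helicase. Polymerase alpha with primase starts each strand, polymerases epsilon and delta extend them on the PCNA clamp, and Fen1 and Lig1 join the Okazaki fragments. Many of these genes are transcribed under the E2F factors as cells enter S phase, and myoblasts switch them off when they leave the cell cycle to form myotubes.

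The promoter letters of the members were not used to choose them. Promoters of 300 bases (250 before the RefSeq start and 50 after it, build GRCm38.p6) were given for 39 of the 47 members, as 47 promoters, since some genes have several starts. A letter string of the E2F type (TTTCCCGC, TTTCGCGC, TTTGGCGC or TTTGCCGC, read on both strands) was in 17 of these 47 promoters, 36.2%. The same strings were in 3.89% of the 11455 promoters of genes tested by 3'READS and in 2.26% of all 32851 promoters. The CCAAT string was in 61.7% of member promoters and in 37.7% of those of tested genes. TTTGAA or TTCGAA, the letters of the cell cycle homology region, was in 12.8% and 13.7% of them. A match is a description of the letters, not a measured binding site. The promoters of Mcm3, Mcm5 and Mcm6, helicase subunits with both kinds of string, are shown beside that of Orc6, the member whose level moved least in RNA-seq. These 4 are examples, and no link between a string and a change was tested. The promoters of Mcm2, Tk1, Rfc5, Rrm1, Rrm2 and Cdc45, which fell in RNA-seq with batch in the fit, held no E2F-type string in this window. Capitals mark the E2F-type and CCAAT strings on either strand. In Mcm5 and Mcm6 a run of capitals holds E2F-type strings of opposite strands that overlap.
Mcm3 (chr1:20820263-20820562, - strand): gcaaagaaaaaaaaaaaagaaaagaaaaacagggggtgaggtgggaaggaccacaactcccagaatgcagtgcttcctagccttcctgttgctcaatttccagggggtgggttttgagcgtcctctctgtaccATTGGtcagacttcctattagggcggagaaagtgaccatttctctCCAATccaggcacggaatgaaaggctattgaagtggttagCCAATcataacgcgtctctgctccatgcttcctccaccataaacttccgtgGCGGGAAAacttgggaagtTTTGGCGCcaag
Mcm5 (chr8:75109259-75109558, + strand): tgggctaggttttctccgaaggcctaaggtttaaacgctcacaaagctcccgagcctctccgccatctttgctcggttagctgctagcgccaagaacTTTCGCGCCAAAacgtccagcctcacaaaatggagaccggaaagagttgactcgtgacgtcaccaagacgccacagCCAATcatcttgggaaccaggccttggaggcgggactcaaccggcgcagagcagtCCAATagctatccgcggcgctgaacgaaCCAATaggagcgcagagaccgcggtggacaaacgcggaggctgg
Mcm6 (chr1:128359656-128359955, - strand): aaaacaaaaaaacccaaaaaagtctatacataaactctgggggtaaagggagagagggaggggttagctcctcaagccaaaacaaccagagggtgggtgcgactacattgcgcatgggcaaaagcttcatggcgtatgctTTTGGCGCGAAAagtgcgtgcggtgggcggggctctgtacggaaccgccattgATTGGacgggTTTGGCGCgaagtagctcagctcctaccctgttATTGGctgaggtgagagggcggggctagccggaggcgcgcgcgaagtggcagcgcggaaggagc
Orc6 (chr8:85299382-85299681, + strand): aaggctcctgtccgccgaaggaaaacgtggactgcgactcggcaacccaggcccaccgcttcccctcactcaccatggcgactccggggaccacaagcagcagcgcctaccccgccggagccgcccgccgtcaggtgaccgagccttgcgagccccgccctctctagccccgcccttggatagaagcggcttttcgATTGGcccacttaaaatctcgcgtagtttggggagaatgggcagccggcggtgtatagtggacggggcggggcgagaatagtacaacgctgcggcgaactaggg
The Orc6 promoter held a CCAAT string and no E2F-type string in this window.

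The libraries were of unequal depth. RNA-seq libraries held 2796693 to 8160386 gene counts and 3'READS libraries 5302728 to 14340927 poly(A) site supporting reads. Each targeted gene was lower in the libraries of its siRNA, of which siSki8 has 1 per assay. Paf1 in RNA-seq was at 107 and 160 reads scaled to a common library total (normalised CPM) in siCtrl. It was at 20.3 and 31.1 after siPaf1 and higher, at 264 and 418, after siCdc73. In 3'READS Paf1 was likewise higher after siCdc73, at 41.0 and 35.9 beside 19.5 and 16.8 in siCtrl. Cdc73 was at 109 and 98.4 in siCtrl and 14.2 and 22.02 after siCdc73, and Wdr61, the gene of Ski8, was at 49.8 and 129 in siCtrl and 5.97 with siSki8. The siPaf1 library of batch 2 stood apart in 3'READS: 336 genes were over 20 times their level in every other library there, none of them a member, against 0 or 1 gene in each of the other libraries. Myoblast and myotube markers moved between libraries. The summed level of the 5 of 8 myoblast markers listed in RNA-seq was 2310 and 2870 CPM in the control libraries, 2350 and 2880 after siPaf1, and 1290 and 1510 after siCdc73. That of the 10 of 20 myotube markers was 87.2 and 227 in the control libraries, 132 and 472 after siPaf1, and 68.0 and 345 after siCdc73. The myoblast sum hides opposite moves. With batch in the fit 2 of the 5 fell after siPaf1 and 1 rose, beside 16.2% and 16.3% of all genes. Cdh15 went from 790 and 1015 CPM in siCtrl to 351.5 and 626 after siPaf1, and Vcam1 from 479 and 303 to 296.5 and 149. Des went from 697 and 1428 to 1338 and 1978. In 3'READS, Myod1, which defines the myoblast, had 0 to 8 reads per library, Pax7 had 0 to 9, and Des had 5415 to 21038. The part of these shifts in the results was not tested.

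The members made up a smaller part of the transcriptome after knockdown of Paf1 or Cdc73. In RNA-seq they held 0.906% and 0.961% of gene counts in the siCtrl libraries of batches 1 and 2. They held 0.369% and 0.374% after siPaf1, 0.38% and 0.298% after siCdc73, and 0.869% with siSki8. In 3'READS the shares were 0.826% and 0.674% in the control libraries, 0.267% and 0.209% after siPaf1, 0.329% and 0.223% after siCdc73, and 0.591% with siSki8. The siPaf1 and siCdc73 libraries lay below both controls in both assays. Rfc5, a subunit of the clamp loader, alone held 5.05% to 41.0% of the members' 3'READS reads. Without it the shares were 0.487% and 0.577% in the control libraries, 0.201% and 0.191% after siPaf1, 0.262% and 0.211% after siCdc73, and 0.499% with siSki8, which narrowed the gap between the controls.

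**Figure D1:**
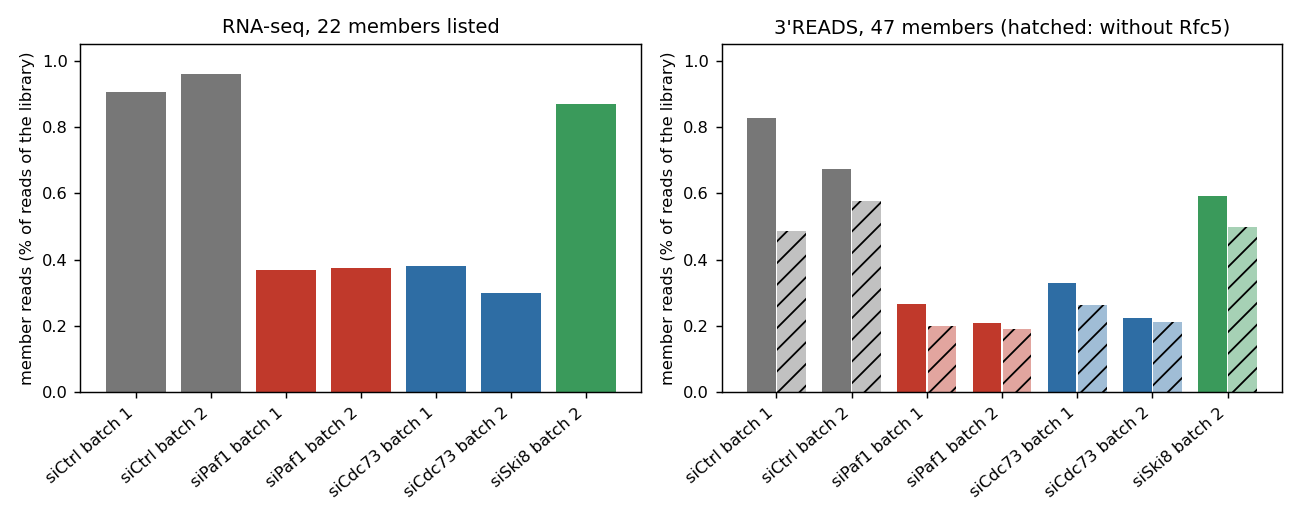
Reads on the members as a percentage of all reads of each library (y axis) for the 7 libraries of each assay (x axis), with hatched bars leaving out Rfc5. The bars of siPaf1 and siCdc73 (0.209% to 0.38% with Rfc5) are all lower than those of siCtrl and siSki8 (0.591% to 0.961%).

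The comparison of each knockdown with siCtrl asks whether losing a subunit alters the mRNAs of these genes. Without a term for batch, edgeR's quasi-likelihood test called 0 members at an adjusted p under 0.05 in any comparison, and 0.0% of all genes were called lower in RNA-seq or in 3'READS, after siPaf1 or after siCdc73. At an unadjusted p under 0.05 it had 21 of 22 members lower after siPaf1 in RNA-seq (8.96% of all 6521 genes tested) and 18 after siCdc73 (11.2% of all genes). In 3'READS the counts were 32 of 47 after siPaf1 (6.46% of all 12579 genes tested) and 29 after siCdc73 (8.42%). DESeq2 called 16 and 14 of 22 lower in RNA-seq (3.3% and 4.37% of all genes) and 13 and 15 of 47 in 3'READS (1.8% and 2.85%). The 2 batches differed widely, and the labels give every batch a library of each of these 3 groups. With batch as a term in edgeR's fit, 21 of 22 members fell after siPaf1 in RNA-seq, where 16.2% of all genes fell, and 21 of 22 fell after siCdc73, where 20.5% did. In 3'READS 39 of 47 fell after siPaf1 against 9.08% of all genes, and 34 of 47 fell after siCdc73 against 11.8%. No member rose in these 4 comparisons. The 3'READS counts depend on the libraries of batch 2. Without the siCtrl library of batch 2 they were 16 after siPaf1 and 20 after siCdc73, without the siCdc73 library of batch 2 the latter was 21, and without the siPaf1 library of batch 2 the former was 34.

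The levels showed the same without a model. In RNA-seq both siPaf1 libraries lay below both siCtrl libraries for 21 of 22 members, as for 23.0% of all genes, and both siCdc73 libraries did for 21 of 22, as for 26.3%. The exception was Orc6 in each case. In 3'READS this held for 41 of 47 members after siPaf1 (21.1% of all genes) and for 39 after siCdc73 (23.7%). Those whose groups overlapped after siPaf1 were Chaf1b, Gins4, Orc2, Pold1, Rfc2 and Rrm1. The median log2 fold change of the members, without the batch term, was -1.69 after siPaf1 and -1.80 after siCdc73 in RNA-seq, beside 0.01 and -0.02 over all genes. In 3'READS it was -1.63 and -1.54, beside 0.06 and 0.00. Within batch 1 the RNA-seq medians were -1.49 after siPaf1 and -1.48 after siCdc73, and within batch 2 they were -1.84 and -1.87. The 3'READS medians were -1.27 and -1.17 within batch 1 and -1.73 and -1.82 within batch 2. Every member was below the control in batch 1 after siPaf1 in both assays, by 0.47 to 2.32 on the log2 scale in RNA-seq.

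**Figure D2:**
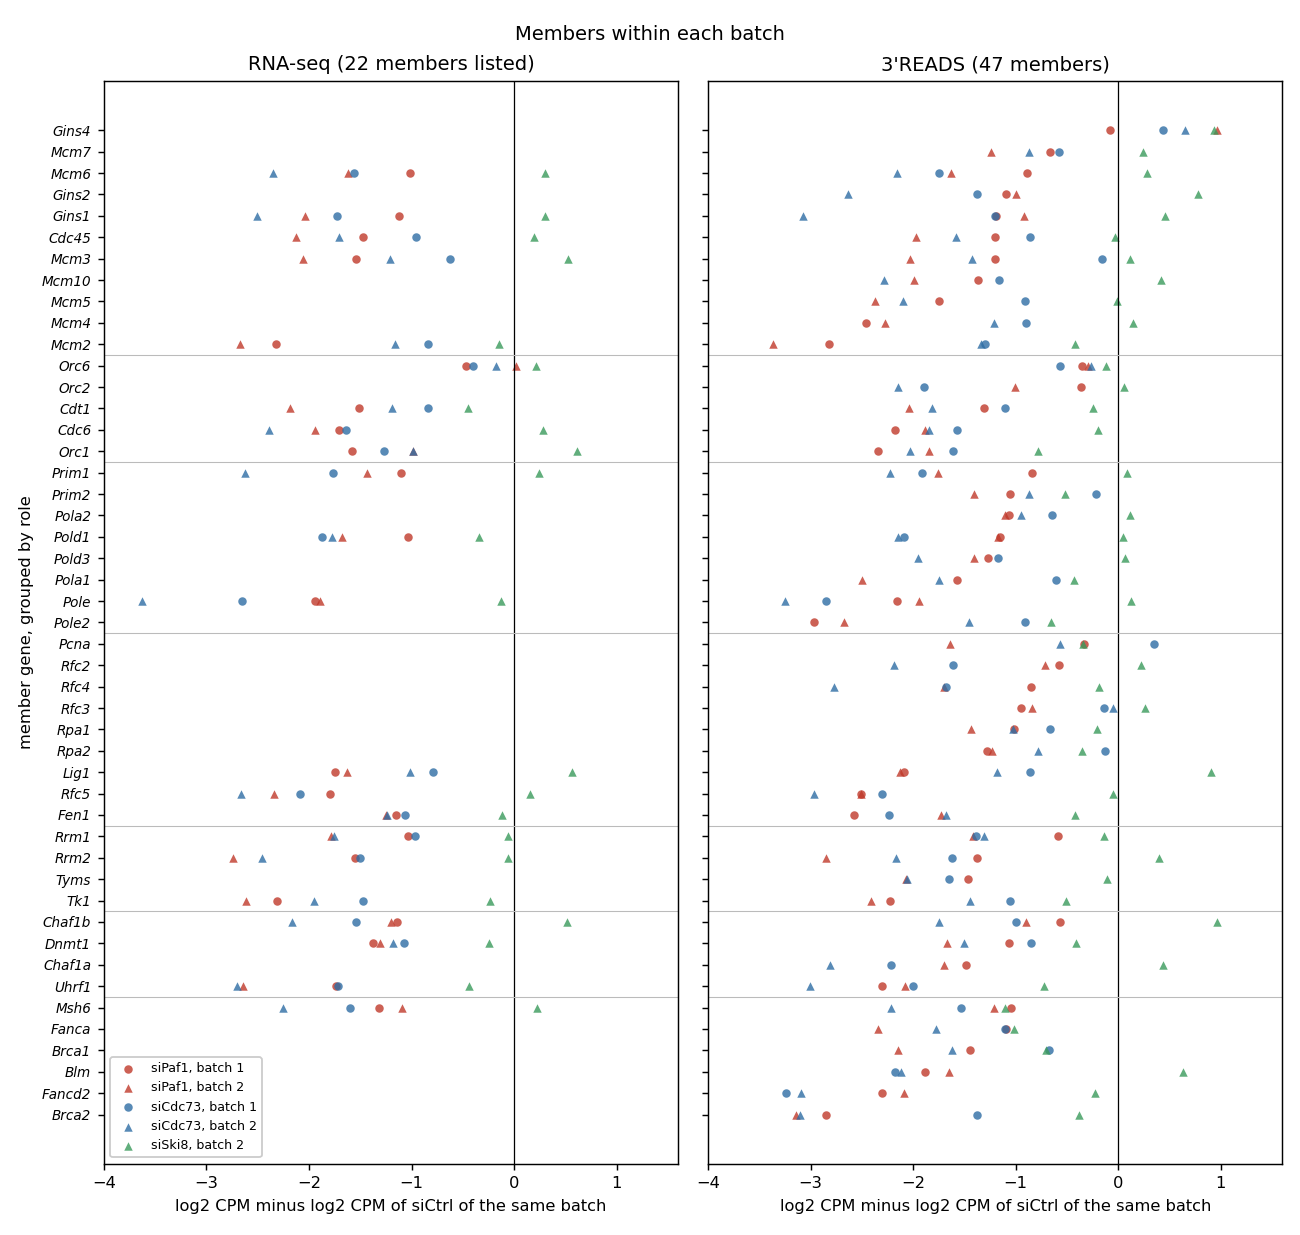
Log2 CPM of each member minus that of siCtrl in the same batch (x axis), by gene and role (y axis), with circles for batch 1, triangles for batch 2 and colours for the siRNA. Most red and blue points lie left of 0, while green points (siSki8) lie on either side, with medians of 0.17 in RNA-seq and -0.05 in 3'READS.

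The helicase genes were lower as a group. All 5 listed in RNA-seq fell after siPaf1 and after siCdc73 with the batch term, and in 3'READS 8 of 11 fell after siPaf1 and 8 after siCdc73. Mcm2, a subunit of the ring, was at 503 and 492 CPM in the control libraries, 101 and 76.8 after siPaf1, 281 and 221 after siCdc73 and 444 with siSki8 in RNA-seq. Its 3 levels were thus ordered, with siPaf1 lowest, siCdc73 between and the other libraries highest. Its log2 fold change was -2.48 ± 0.36 (SE, n = 2 against 2) after siPaf1, with an adjusted p from edgeR of 0.0818 without and 4.65e-09 with the batch term. Mcm6, another ring subunit, was at 725 and 1021 CPM in the control libraries, 357 and 333 after siPaf1, 246 and 200 after siCdc73 and 1256 with siSki8. Here siCdc73 was lower than siPaf1, the reverse of Mcm2. In 3'READS, Mcm4 was at 60.6 and 47.6 CPM in the control libraries, 10.8 and 9.72 after siPaf1, 32.4 and 20.4 after siCdc73 and 52.7 with siSki8. Mcm5 was at 125 and 75.5, then 36.9 and 14.5 after siPaf1 and 66.4 and 17.5 after siCdc73, and Mcm7 at 70.7 and 124, then 44.4 and 52.5 and 47.1 and 67.7. All MCM subunits were therefore below both controls in every siPaf1 and siCdc73 library of 3'READS. Mcm10, which helps to start the helicase, was at 37.1 and 27.7 CPM in the control libraries, 14.2 and 6.81 after siPaf1 and 16.5 and 5.54 after siCdc73 in the same assay. Cdc45, which joins the ring to make it active, was at 180 and 276 CPM in siCtrl and 64.6 and 62.5 after siPaf1 in RNA-seq. The GINS subunits did not all follow. Gins1 went from 58.1 and 130.5 CPM in siCtrl to 26.6 and 31.4 after siPaf1 in RNA-seq and fell with the batch term there, but in 3'READS neither Gins1 nor Gins2 passed after siPaf1 (adjusted p from edgeR of 0.163 and 0.149 with the batch term). Gins4 was at 33.0 and 11.6 CPM in the control libraries, 31.2 and 22.9 after siPaf1, 44.7 and 18.3 after siCdc73 and 22.3 with siSki8. Its libraries overlapped in all groups, and it was the member with a positive fitted value after siPaf1 and after siCdc73 (log2 fold change of 0.28 ± 0.64 SE after siPaf1 and 0.50 ± 0.64 after siCdc73, without the batch term).

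Of the licensing genes, 3 of the 4 in RNA-seq fell after siPaf1 and after siCdc73, and 3 and 4 of 5 did in 3'READS, with the batch term. Cdt1 was at 105 and 100.2 CPM in the control libraries, 36.7 and 21.6 after siPaf1, 58.8 and 43.7 after siCdc73 and 73.5 with siSki8 in RNA-seq. Cdc6, its partner in loading MCM, was at 114 and 91.8 in the control libraries, 34.5 and 23.7 after siPaf1, 36.2 and 17.2 after siCdc73 and 112 with siSki8. Both stood below the controls in each siPaf1 and siCdc73 library. The origin recognition subunits differed from one another. Orc1 in 3'READS was at 104 and 92.8 CPM in the control libraries, 20.4 and 25.7 after siPaf1 and 33.9 and 22.6 after siCdc73. Orc2 was at 77.6 and 56.1 in the control libraries, 60.5 and 27.8 after siPaf1, 20.8 and 12.5 after siCdc73 and 58.5 with siSki8, so the groups overlapped after siPaf1 and not after siCdc73. Orc6 was at 778 and 1155 CPM in the control libraries, 562 and 1169 after siPaf1, 590 and 1023 after siCdc73 and 1341 with siSki8 in RNA-seq. Its knockdown libraries overlapped the controls, and its log2 fold change after siPaf1 was -0.16 ± 0.50 (SE, n = 2 against 2, adjusted p from edgeR of 0.912, and 0.448 with the batch term).

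Orc6 also had the highest RNA-seq level of the 22 members per length, with 397 and 558 reads scaled to transcript length and library total (RPKM) in siCtrl. Rrm2 followed with 289.7 and 290.5, then Mcm6 with 118 and 158 and Mcm3 with 111 and 105. Orc1 was lowest with 9.76 and 10.8. In 3'READS, which counts mRNA ends whatever the length of the mRNA, the order was another: Orc6 was at 27.2 and 33.2 CPM in the control libraries, while Rfc5 led with 3748 and 898 and Rpa2 followed with 1275 and 1017. Rfc5 was 13th of the 22 in RNA-seq, at 52.1 and 36.04 RPKM. The cause of this difference between assays for Orc6 and Rfc5 was not tested.

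Among the polymerase genes, all 3 listed in RNA-seq fell after siPaf1 and after siCdc73, and in 3'READS 8 of 8 fell after siPaf1 and 4 after siCdc73, with the batch term. Pole, the catalytic subunit of polymerase epsilon, was at 289.6 and 217 CPM in the control libraries, 75.1 and 58.3 after siPaf1, 45.8 and 17.2 after siCdc73 and 198 with siSki8 in RNA-seq. It had the lowest log2 fold change of any member after siCdc73 in RNA-seq, -2.99 ± 0.53 (SE, n = 2 against 2, adjusted p from edgeR of 0.0712, and 1.44e-09 with the batch term). Prim1, the catalytic subunit of primase, was at 151 and 291 in the control libraries, 70.3 and 107 after siPaf1, 44.1 and 46.9 after siCdc73 and 345 with siSki8. Both were lower after siCdc73 than after siPaf1. Pold1, of polymerase delta, was at 121 and 155 in the control libraries, 58.5 and 48.2 after siPaf1 and 32.8 and 45 after siCdc73. In 3'READS, Pola1, Pola2, Prim2 and Pole2 were the polymerase members called after siPaf1 and not after siCdc73, with log2 fold changes of -2.22, -1.09, -1.26 and -3.29 after siPaf1 and -1.29, -0.81, -0.57 and -1.30 after siCdc73. None of these 4 differed between the knockdowns by the direct test (adjusted p from edgeR with the batch term of 0.262, 0.543, 0.102 and 0.138).

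Among the clamp and lagging strand genes, all 3 listed in RNA-seq fell after siPaf1 and after siCdc73, and 7 and 5 of 9 fell in 3'READS after siPaf1 and siCdc73, with the batch term. Rfc5 was at 132 and 96.5 CPM in the control libraries, 37.8 and 18.8 after siPaf1, 30.8 and 15.0 after siCdc73 and 107 with siSki8 in RNA-seq. Fen1, the flap nuclease, was at 129 and 127 in the control libraries, 58.0 and 53.0 after siPaf1, 61.6 and 53.6 after siCdc73 and 117 with siSki8. Lig1 was at 245 and 372 in the control libraries, 72.3 and 120 after siPaf1, 141 and 183 after siCdc73 and 549.7 with siSki8. Each of these had no overlap between the controls and siPaf1 or siCdc73. Fen1 was at 0.129 to 1.80 CPM in 3'READS and was not called there. Pcna, the clamp itself, was measured by 3'READS only, at 15.2 and 30.1 CPM in the control libraries, 12 and 9.53 after siPaf1, 19.3 and 20.2 after siCdc73 and 23.7 with siSki8. Rfc4, of the clamp loader, was at 18.6 and 21.1 in the control libraries, 10.2 and 6.35 after siPaf1 and 5.65 and 2.91 after siCdc73. Rpa1, the large single-strand binding subunit, was at 142 and 228, then 69.8 and 84.1 and 89.2 and 111. Pcna fell after siPaf1 by a narrow margin with the batch term (adjusted p from edgeR of 0.049) and lay among the controls after siCdc73. Rfc3 and Rpa2 likewise fell after siPaf1 and not after siCdc73, where their log2 fold changes were -0.10 ± 0.40 and -0.38 ± 0.46 (SE, without the batch term). None of Pcna, Rfc3 and Rpa2 was called between the knockdowns by the direct test with the batch term. Rpa2 was at 1275 and 1017 CPM in the control libraries, 523 and 432 after siPaf1, and 1165 and 594 after siCdc73, so of its siCdc73 libraries that of batch 1 lay among the controls and that of batch 2 below them.

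The genes of nucleotide supply were lower as a group. The 3 in RNA-seq and the 4 in 3'READS all fell after siPaf1 and after siCdc73 with the batch term. Tk1, thymidine kinase, was at 124 and 219 CPM in the control libraries, 24.7 and 35.6 after siPaf1, 44.6 and 56.2 after siCdc73 and 185 with siSki8 in RNA-seq, with the lowest log2 fold change of any member after siPaf1, -2.51 ± 0.44 (SE, n = 2 against 2, adjusted p from edgeR of 0.0835, and 1.66e-08 with the batch term). Rrm2, the small subunit of ribonucleotide reductase, was at 845 and 895 in the control libraries, 289 and 133 after siPaf1, 299 and 163 after siCdc73 and 859 with siSki8. Rrm1, the large subunit, was at 480 and 775, then 233 and 224, 244 and 228, and 744. In RNA-seq all 3 were below both controls in every siPaf1 and siCdc73 library. Tyms, which makes thymidylate, was at 316 and 258 CPM in the control libraries, 114 and 61.4 after siPaf1, 101 and 61.8 after siCdc73 and 239.9 with siSki8 in 3'READS. Rrm1 in 3'READS differed more by batch than by siRNA, at 23.1 and 180 in siCtrl and 15.2 and 67.3 after siPaf1, and its groups overlapped there.

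**Figure D3:**
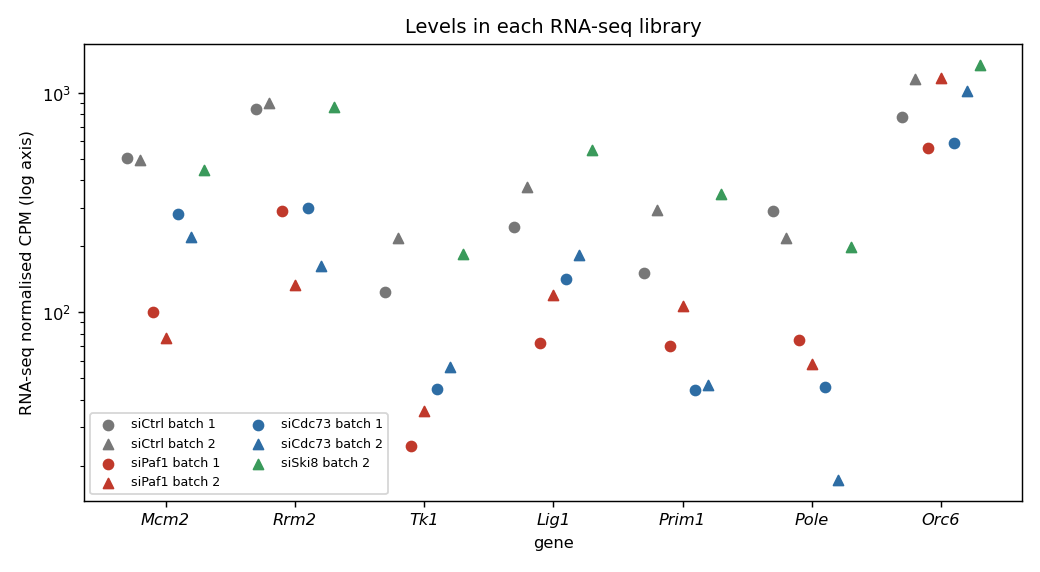
RNA-seq normalised CPM on a log axis (y axis) of 7 members (x axis), with circles for libraries of batch 1, triangles for batch 2 and colours for the siRNA. Mcm2, Tk1 and Lig1 are lowest after siPaf1, Prim1 and Pole are lowest after siCdc73, and the points of Orc6 overlap (562 to 1341 CPM).

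The chromatin genes copy epigenetic marks or deposit histones behind the fork. All 3 in RNA-seq fell after siPaf1 and after siCdc73 and 3 of 4 did in 3'READS, with the batch term. Uhrf1, which brings Dnmt1 to half-methylated DNA, was at 225 and 222 CPM in the control libraries, 67.3 and 35.2 after siPaf1, 68.0 and 33.8 after siCdc73 and 164 with siSki8 in RNA-seq. Dnmt1, the maintenance methyltransferase, was at 1411 and 799 in the control libraries, 542 and 323 after siPaf1, 670.5 and 352 after siCdc73 and 672 with siSki8, so its siSki8 library also lay below both controls. Chaf1b, of the histone chaperone CAF-1, was at 65.0 and 83.3 in the control libraries, 29.3 and 35.9 after siPaf1, 22.1 and 18.2 after siCdc73 and 119 with siSki8. It was the chromatin gene not called in 3'READS, where it had 0.639 to 5.85 CPM.

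The 6 repair genes all fell in 3'READS after siPaf1 and after siCdc73 with the batch term. Brca2, a mediator of homologous recombination, was at 16.2 and 16.8 CPM in the control libraries, 2.06 and 1.72 after siPaf1, 6.08 and 1.77 after siCdc73 and 12.8 with siSki8. Fancd2, the ubiquitylated protein of the Fanconi pathway, was at 53.1 and 47.6 in the control libraries, 10.6 and 11.1 after siPaf1, 5.43 and 5.39 after siCdc73 and 40.5 with siSki8. Both stood below the controls in all siPaf1 and siCdc73 libraries. Brca1 was at 10.2 and 13.1 in siCtrl and 3.61 and 2.78 after siPaf1, Fanca at 15.6 and 23.9 and then 7.23 and 4.56, and Blm at 9.60 and 17.3 and then 2.45 and 5.36. Msh6, which recognises mismatches, was the repair member listed in RNA-seq, at 676 and 1168 CPM in the control libraries, 271 and 547 after siPaf1, 223 and 245 after siCdc73 and 1361 with siSki8.

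After siSki8 no member was called in either assay. With the batch term edgeR called 0 of 22 and 0 of 47 members, beside 2.5% of all genes lower and 2.93% higher in RNA-seq and 0.0715% lower and 0.0795% higher in 3'READS. At an unadjusted p under 0.05 in the fit without batch it had 0 members lower in each assay, and DESeq2 called 0. The median log2 fold change within batch 2 was 0.17 in RNA-seq, with 10 of 22 members below 0, and -0.05 in 3'READS, with 26 of 47 below 0. Set directly against siSki8 with the batch term, siPaf1 had 21 of 22 members lower in RNA-seq (15.4% of all genes) and 32 of 47 in 3'READS (6.3%). The siCdc73 libraries had 20 of 22 lower than siSki8 (16.0% of all genes) and 28 of 47 (5.63%). The counts for siCdc73 were lower without its library of batch 2, which leaves it 1 library. Comparisons with siSki8 rest on its 1 library, which is assumed to vary like the other groups.

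The knockdowns of Paf1 and Cdc73 were also set directly against each other. With the batch term 5 of 22 members were lower after siPaf1 in RNA-seq, beside 13.6% of all genes, and 4 were higher, beside 14.6%. In 3'READS 4 of 47 were lower, beside 6.3%, and 4 were higher, beside 8.08%. These shares are close to the background. Mcm2, Mcm3, Cdt1, Lig1 and Tk1 were lower after siPaf1 in RNA-seq and Mcm6, Prim1, Pole and Msh6 higher. In 3'READS Mcm2, Mcm4, Lig1 and Tk1 were lower after siPaf1 and Orc2, Rfc2, Pold1 and Fancd2 higher. Mcm2, Lig1 and Tk1 were thus called in both assays. Among the members called, Mcm2 had the largest difference, -1.50 ± 0.35 (SE) on the log2 scale in RNA-seq and -1.74 ± 0.43 in 3'READS (adjusted p from edgeR of 0.2155 and 0.385, and 2.01e-05 and 0.000852 with the batch term). Rfc2 was at 146 and 76.4 CPM in the control libraries, 97.6 and 46.7 after siPaf1, 48.0 and 16.5 after siCdc73 and 89.2 with siSki8. It and Orc2, Fancd2 and Pold1 lay nearer to control after siPaf1 than after siCdc73. Over the 22 members in both assays the log2 differences without the batch term had the same sign for 19. Their Pearson r across genes was 0.921. The genes are not independent replicates. The assays do not share reads, and the labels do not say whether batch 1 or 2 is the same batch in both. Fewer members were called in each assay when the siCdc73 library of batch 2 or that of batch 1 was left out.

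**Figure D4:**
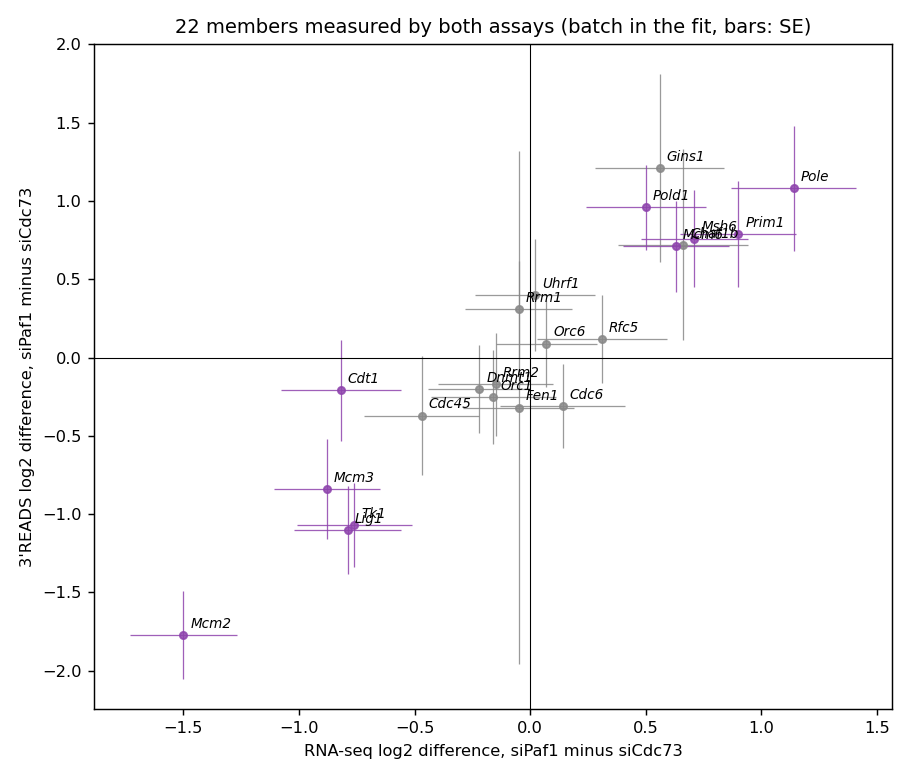
Log2 difference siPaf1 minus siCdc73 with the batch term in RNA-seq (x axis) and 3'READS (y axis) for the 22 members in both assays, with bars of 1 SE and purple for those called in either assay. Mcm2, Lig1, Tk1 and Mcm3 lie at the lower left, and Pole, Prim1, Pold1, Msh6 and Mcm6 at the upper right.

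Poly(A) site use was measured in the same 3'READS reads. The members had 100 sites in the last exon with 273196 reads, 45 intronic sites with 719 reads in 18 genes, and 3 sites in upstream exons with 16 reads. Intronic and upstream exon sites thus held 0.212% and 0.264% of member reads in the control libraries, 0.226% and 0.25% after siPaf1, 0.282% and 0.411% after siCdc73 and 0.276% with siSki8. Over all genes the shares were 2.12% to 2.46% in siCtrl and 2.87% to 3.28% after siPaf1 or siCdc73. Every library's share was lower over the members than over all genes. Of the 72 last-exon sites with at least 5% of a gene's reads, 45 had AATAAA and 6 had ATTAAA within the 50 bases before the cleavage site in the mm9 genome. Of these 72, 53 lay in an annotated exonic UTR and 19 beyond the annotated gene. The latter lay 465 to 4744 bases past the annotated end in Chaf1a, Fanca, Gins4, Rfc2 and Rrm1, and only 1 to 9 bases past it in the other genes.

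Relative use of the main pair of last-exon sites was tested in 19 members. Without the batch term none was called (2 at an unadjusted p under 0.05 after siPaf1). With it, 1 shifted to the upstream site after siPaf1, beside 5.1% of the 4567 genes tested, and 2 shifted to the downstream site, beside 1.69%. After siCdc73 0 of 19 were called with the batch term, beside 3.88% of genes toward the upstream site and 0.416% toward the downstream site. After siSki8 0 were called, beside 0.307% and 0.0%. The members with an unadjusted p under 0.05 numbered 0 and 2. With 19 members, the 1 call toward the upstream site after siPaf1 and the 0 calls after siCdc73 and siSki8 are near these backgrounds. The windows of 30 bases that end at the sites of these 3 genes are shown because their reads carry the shift. Capitals mark AATAAA or ATTAAA, and coordinates are mm9.
Rrm1 upstream site (chr7:109617411-109617440, + strand): ggtcattttgaAATAAAcatttctaagtga
Rrm1 downstream site (chr7:109622464-109622493, + strand): tggaagaaagaaaaagtatggtggctggaa
Chaf1a upstream site (chr17:56207421-56207450, + strand): tgtggacatgtataaacatactctacttga
Chaf1a downstream site (chr17:56211688-56211717, + strand): tccccaATTAAAtactttcttttgtaagaa
Fancd2 upstream site (chr6:113546247-113546276, + strand): gctttgtaAATAAAtctgtttcagagtttt
Fancd2 downstream site (chr6:113546984-113547013, + strand): taccggtATTAAAgttatgttttgttgggt
The upstream site of Rrm1 and that of Fancd2 are in annotated UTR exons. The downstream site of Fancd2 is 2 bases past the annotated end, that of Rrm1 4208 past it, and the sites of Chaf1a 477 and 4744 past it.

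Rrm1 used its upstream site for 79.1% of 129 reads and 97.3% of 1856 in the control libraries, and for 44.4% of 90 and 83.5% of 1003 after siPaf1. The shares were 70.0% of 30 and 95.4% of 1002 after siCdc73 and 96.6% of 1403 after siSki8. Within each batch siPaf1 was lowest, while across batches the groups overlapped. The log2 shift toward the upstream site was -2.55 ± 0.51 (SE, adjusted p from edgeR of 0.000178 with the batch term and 1.0 without). Chaf1a, the large subunit of CAF-1, used its upstream site for 82.8% of 319 reads and 91.9% of 259 in the control libraries, 63.6% of 129 and 52.1% of 119 after siPaf1, 77.3% of 44 and 86.4% of 44 after siCdc73, and 90.7% of 302 after siSki8. The siPaf1 libraries lay below all others (adjusted p of 0.0102 with the batch term and 0.950 without). Fancd2 moved the other way, with 31.0% of 287 reads and 23.0% of 404 at the upstream site in the control libraries, 51.6% of 62 and 80.3% of 157 after siPaf1, 61.1% of 18 and 38.9% of 54 after siCdc73 and 19.2% of 281 after siSki8. Its shift was 2.56 ± 0.67 (SE, adjusted p of 0.00635 with the batch term and 0.960 without). The higher share was in the siPaf1 library of batch 2, which stood apart in 3'READS, and the siPaf1 library of batch 1 also lay above both controls.

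**Figure D5:**
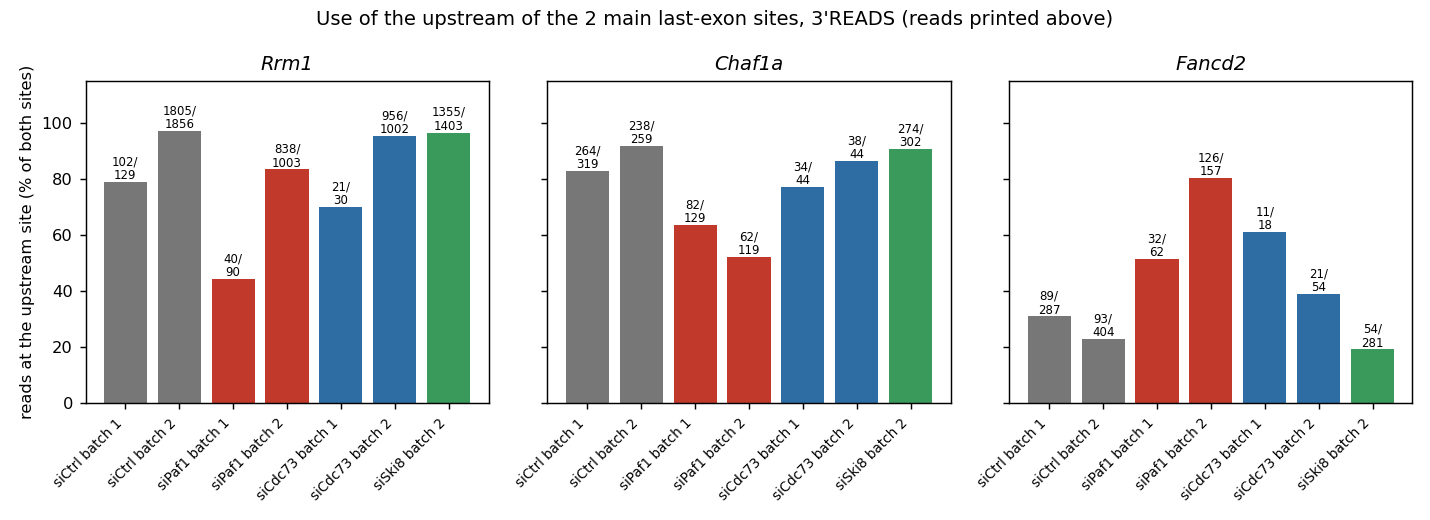
Share of reads at the upstream of the 2 main last-exon sites (y axis, % of both sites) in each 3'READS library (x axis) for Rrm1, Chaf1a and Fancd2, with the reads printed above each bar. Upstream use is lowest after siPaf1 for Chaf1a (63.6% and 52.1%) and highest there for Fancd2 in batch 2 (80.3%).

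Intronic sites with at least 5% of a gene's reads occurred in 4 members. Fancd2 had 239 reads at chr6:113496431, 55 and 88 in the control libraries, 15 and 10 after siPaf1, 3 and 14 after siCdc73 and 54 with siSki8. As a share of its main sites these were 16.1% and 17.9%, 19.5% and 5.99%, 14.3% and 20.6%, and 16.1%. The read number went down with the gene while the share did not move one way. Pola1 had 6 and 23 intronic reads in the control libraries, 1 and 0 after siPaf1, 1 and 14 after siCdc73 and 6 with siSki8. Pole had 12 and 7, 0 and 2, 0 and 1, and 18. Pole2 had 14 and 3, 0 and 0, 3 and 10, and 8, and was below the reads needed for a test. With the batch term 0 of the 3 members tested passed after siPaf1, beside 18.9% of the 1766 genes tested toward intronic or upstream exon sites and 4.08% toward the last exon. The backgrounds were 20.4% and 2.77% after siCdc73 and 0.0566% each way after siSki8, also with 0 members. Without the batch term 0 passed, and 0 had an unadjusted p under 0.05 in either fit. A count of 0 of 3 is too small to set against these shares.

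Other genes of the same pathways give the setting. With the batch term 16.2% of all genes fell and 16.3% rose after siPaf1 in RNA-seq, and 20.5% and 19.4% after siCdc73. In 3'READS the shares were 9.08% and 9.74% after siPaf1, and 11.8% and 10.8% after siCdc73. Of 19 further replication genes in RNA-seq, 13 fell and 1 rose after siPaf1 and 13 fell and 1 rose after siCdc73, with the batch term, and in 3'READS 19 fell and 0 rose of 41, and 15 fell and 1 rose. Top2a, the topoisomerase that untangles copied DNA, was at 2450 and 2794 CPM in the control libraries, 543 and 358 after siPaf1, 768 and 502 after siCdc73 and 2599 with siSki8 in RNA-seq. Rpa3, the small single-strand binding subunit, was at 18.9 and 37.2, then 3.60 and 2.79, 6.502 and 7.98, and 21.7. Orc4 was the further replication gene that rose after siPaf1, from 87.5 and 118 to 135 and 185, and it was at 227 with siSki8. After siSki8 the median log2 fold change of these 19 genes was 0.26 with the batch term, with 4 below 0. Dbf4 was at 158.5 and 191 CPM in siCtrl and 466 in the 1 siSki8 library, and Nasp at 384 and 397 and then 932. Of 20 further recombination genes, 13 fell after siPaf1 and 15 after siCdc73 in RNA-seq, with none that rose, and of 31 in 3'READS 11 fell and 1 rose, and 10 fell and 0 rose. Rad54l, a motor of strand exchange, was at 47.5 and 42.2 CPM in the control libraries, 10.5 and 1.396 after siPaf1, 17.0 and 8.94 after siCdc73 and 40.02 with siSki8.

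Genes of excision and other repair were mixed. In RNA-seq 6 of 16 fell and 2 rose after siPaf1, and 8 fell and 2 rose after siCdc73. Over all genes 16.3% and 19.4% rose, so the numbers that rose are near the background. Xpc, which finds damaged bases, was at 23.5 and 17.8 CPM in siCtrl and 67.2 and 47.8 after siPaf1. Polb rose after siPaf1 and Ogg1 fell. Of 19 mitosis genes in RNA-seq all 19 fell after siPaf1 and 18 after siCdc73, among them Prc1, from 694 and 711 CPM to 167 and 55.8 after siPaf1, and Nuf2, from 309 and 412 to 60.3 and 65.3. Of 14 genes of the Rb and E2F pathway 8 fell and 1 rose after siPaf1. Ccne2 was at 112 and 92.0 CPM in siCtrl and 17.98 and 17.1 after siPaf1, Ccne1 at 112 and 184 and then 36.8 and 37.7, and Ccnd2, which rose, at 14.1 and 11.9 and then 23.0 and 23.4. After siCdc73 5 fell and 2 rose, the latter near the 19.4% of all genes that rose. After siSki8 1 fell, beside 2.5% of all genes. In RNA-seq the medians after siPaf1 with the batch term were -1.65 for the members, -1.0 for further replication genes, -1.08 for further recombination genes, -0.37 for other repair genes, -2.10 for mitosis genes, -0.77 for Rb and E2F genes and 0.02 for all genes. In 3'READS they were -1.66, -1.13, -1.19, -0.42, -1.97, -0.95 and 0.08 in the same order.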

How the data were processed

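C2C12 myoblast libraries were analysed from the processed tables that the authors deposited. Per the labels and the study's methods, reads were mapped to mm9 with Bowtie2 and uniquely mapped reads were kept. RNA-seq values were deposited as read counts per RefSeq transcript (reads in the coding region) and as RPKM, and 3'READS values as counts of poly(A) site supporting reads per site, without normalisation by the authors. The tables hold 15033 transcripts and 59578 sites, and 0 per-sample columns lacked a sample. The 52 ChIP-seq samples were not analysed here.

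Each gene's RNA-seq count was that of its transcript with the most reads. The 3'READS count was the sum over sites other than upstream antisense. All genes passing filterByExpr were fitted in edgeR 4.0.16 (TMM, quasi-likelihood test, Benjamini-Hochberg over all genes, threshold 0.05) with 1 coefficient per group over all 7 libraries. A fit with batch as a term, the replicate block, was the main alternative. It applies because the labels name the batch, and batch differences correlated between groups with r of 0.62 to 0.748 in RNA-seq and 0.432 to 0.61 in 3'READS. CPM values are TMM-scaled. Site use was tested by whether knockdown changed the ratio of isoforms, for sites with at least 5% of a gene's reads and genes with a mean of 20 reads. DESeq2 1.42.0, library size scaling, no filter, other gene counts and leaving out each library were the alternatives. A further one applied the study's RNA-seq rule (1.4-fold, Fisher's exact p under 0.01) to pooled reads of both assays.

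On simulated counts with a batch difference, the fit without the term recovered 0 of 100 4-fold and 0 of 99 2-fold changes for RNA-seq (5967 genes) and 0 of 100 of each for 3'READS (11234 genes). The fit with it recovered 98 of 100 4-fold and 54 of 99 2-fold changes for RNA-seq, and 97 and 39 of 100 for 3'READS. The simulated batch shift of a gene was the same in every library of batch 2. In the data batch differences correlated between groups with r of 0.432 to 0.748 only. The simulated spread was equal in both assays, while the fitted spread with the term was larger in 3'READS. The recoveries hold for that setting and do not measure recovery in the data. Counting error only is covered by depth, and the biological spread rests on 2 libraries a group. Poly(A) site windows came from the NCBIM37 (mm9) genome with GENCODE annotation and promoters from RefSeq on GRCm38.p6. Every member could be named. Values in each library were given for the members with the lowest and highest change per role, the largest differences between siPaf1 and siCdc73, those with a called or intronic site, and at most 2 genes each way from other lists. Some genes of those lists are not reported here. Further values by library were added for members after they had been seen. The members and lists were chosen with earlier results of these data known.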

Additional observations from a re-analysis of the deposited data

Results flagged for a closer look

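Members whose effect differed between siPaf1 and siCdc73 by the direct test with the batch term are given here by their log2 difference, siPaf1 minus siCdc73, in the fit without it. In RNA-seq the differences were -1.50 for Mcm2, -0.89 for Mcm3, -0.81 for Cdt1, -0.76 for Lig1 and -0.74 for Tk1, which were lower after siPaf1. They were 0.63 for Mcm6, 0.81 for Msh6, 0.96 for Prim1 and 1.07 for Pole, which were higher after siPaf1. In 3'READS they were -1.74 for Mcm2, -1.36 for Mcm4, -1.17 for Lig1 and -1.07 for Tk1, and 0.96 for Pold1, 1.00 for Fancd2, 1.17 for Rfc2 and 1.41 for Orc2. None passed in the fit without batch. Both groups' effects had the same sign against siCtrl for each of these members, and the difference is one of size.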

How the results depend on the processing

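The libraries carry a batch number in the labels, and adding it as a replicate block, the paired analysis, changed the number of members called. In RNA-seq it gave 21 for siPaf1 against siCtrl, 21 for siCdc73 against siCtrl, 9 for siPaf1 against siCdc73, 21 for siPaf1 against siSki8 and 20 for siCdc73 against siSki8, where the fit without it called 0. In 3'READS the blocked counts were 39, 34, 8, 32 and 28 in the same order, and 3 for last-exon site use after siPaf1. The other site tests and siSki8 against siCtrl stayed at 0 with the block. DESeq2 without the block called 16, 14, 1, 12 and 10 in RNA-seq and 13, 15, 1, 6 and 5 in 3'READS (2.5% to 8.43% and 1.73% to 5.65% of all genes in either direction). Without a filter on low counts edgeR called 4, 9, 0, 4 and 4 in RNA-seq and 0, 1, 0, 0 and 0 in 3'READS (0.101% to 2.85% and 0.0% to 0.139% of all genes). The study stated its rule (over 1.4-fold, Fisher's exact test) for RNA-seq, and it was applied here to summed reads of both assays. This rule ignores the spread between libraries. In both directions it gave 21, 22, 13, 20 and 20 in RNA-seq, and 45, 43, 24, 42 and 40 in 3'READS. For siSki8 against siCtrl it gave 7 and 10. Against siCtrl it called 47.1% to 53.5% of all genes in RNA-seq and 35.8% to 53.4% in 3'READS. For siSki8 against siCtrl these shares were 48.4% and 35.8%, larger than the shares of members called. For siPaf1 against siCdc73 they were 45% and 52.2%, and 24 of 47 members is near the latter. Against siSki8 they were 58.5% to 61.1% in RNA-seq and 48.7% to 55.6% in 3'READS.

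Leaving out 1 library at a time, the fit without the block called 0 to 1 members after siPaf1 in RNA-seq. With the block, an alternative added after seeing the data, it called 0 to 2 after siSki8 in RNA-seq, 1 to 9 for siPaf1 against siCdc73, and 13 to 20 for siCdc73 against siSki8. In 3'READS it called 16 to 40 after siPaf1, 20 to 39 after siCdc73, 3 to 11 for siPaf1 against siCdc73, 22 to 40 for siPaf1 against siSki8 and 14 to 34 for siCdc73 against siSki8. With the block and library size alone, siPaf1 against siCdc73 had 13 in 3'READS. The shares of all genes called in these refits are not given here, so no count is set against a background. The cause of the changes in these counts was not tested.

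The median log2 fold change of the members kept its sign after siPaf1 and siCdc73 in every setting run, from -1.73 to -1.43 and -1.84 to -1.50 in RNA-seq and -1.68 to -1.28 and -1.89 to -1.40 in 3'READS with 1 library left out. Within batch 1 it was -1.48 after siCdc73 in RNA-seq and -1.27 after siPaf1 in 3'READS. After siSki8 it changed sign: -0.15 with library size alone in RNA-seq, and 0.06 with the block and 0.07 with library size alone in 3'READS. With 1 library left out it was 0.14 to 0.54 in RNA-seq and -0.13 to -0.05 in 3'READS. Single members that changed sign with 1 library left out were Orc6 in RNA-seq (-0.78 to 0.29 after siPaf1, -0.71 to 0.11 after siCdc73), and in 3'READS Gins4 (-0.29 to 1.21 and -0.28 to 1.43), Rrm1 (-2.73 to 0.84 and -3.54 to 0.82), and after siCdc73 Pcna (-0.61 to 0.38), Rfc3 (-0.31 to 0.13) and Rpa2 (-0.95 to 0.02). Reads were fewest for Fen1 (0.129 to 1.80 CPM in 3'READS), and their part in the calls was not tested.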

Other observations

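Upstream antisense sites, which the gene sums leave out, held few reads near the members. Their summed level was 6.09 and 5.20 CPM in the control libraries and 2.30 and 1.64 after siPaf1. It was 3.02 and 4.39 after siCdc73 and 4.46 with siSki8. No knockdown library exceeded the controls on this scale, but the members' sense reads were a smaller share too. Antisense reads were 45 and 51 beside 60911 and 66027 sense reads in siCtrl. They were 18 and 22 beside 20800 and 27986 after siPaf1, and 16 and 63 beside 17385 and 31847 after siCdc73. Per sense read each siPaf1 and siCdc73 library lay above both controls, on few reads, which was not tested.

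Among the last-exon sites, 27 members had 1 site with at least 5% of the gene's reads, 16 had 2, 3 had 3 and 1 had 4. Gins4, the member with positive fitted values after siPaf1 and siCdc73, had 3 such sites. Its most downstream one, 4439 bases past the annotated gene end and with AATAAA 21 bases before it, had 33 and 30 reads in the control libraries, 81 and 186 after siPaf1, 37 and 38 after siCdc73 and 11 with siSki8. Its most used site had 164 and 72 reads in siCtrl and 134 and 132 after siPaf1. These reads are not scaled to depth, and the 186 are from the siPaf1 library of batch 2, which stood apart in 3'READS. Relative use of these 2 sites was not called after siPaf1 (adjusted p from edgeR of 0.0851 with the batch term and 0.972 without). Gins4 was singled out after its values were seen.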
